A study of Drosophila melanogaster with 2 samples.

Results

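The Ultrabithorax locus of Drosophila melanogaster was examined in a map of Ash1 binding, over the gene Ubx (FBgn0003944) and its upstream neighbour lncRNA:bxd (FBgn0020556). Members were chosen by position alone: every candidate region whose summit lay on 3R between 16656623 and 16798000 (dm6), a window of 141378 bp. There were 166 such regions of 30000 in the list made from both replicates pooled. The authors made that list to include background as well as enriched regions. Replicate 2 had 176 of its own 30000 regions there, and replicate 4 had 156 of 30000. Of the 1567 regions that passed the authors' irreproducible discovery rate (IDR) threshold, called peaks here, 7 lay in the window.

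The chromatin came from embryos of a transgenic line, 0 to 24 h old and of both sexes, that stably express Ash1 with GFP at its C terminus, and was sonicated to 200 to 800 bp for ChIP-seq (chromatin immunoprecipitation followed by sequencing). The labels name ash1 as the antibody. They also describe both libraries as input controls in a free-text field, whereas the assay name and the deposited peak calls describe immunoprecipitated chromatin, and the libraries were treated as Ash1-GFP ChIP here. The only group comprises biological replicates 2 and 4, called against 1 shared control alignment. Whether the tagged gene replaces ash1 or is an extra copy is not given in the sources used here, and no untagged strain was analysed here. Whole embryos mix cells in which Ubx is active with cells in which it is silent, so a region's rank cannot be assigned to either state. A region's rank follows the authors' signal value, a measure of enrichment over the control whose scale is not stated, with 1 the strongest of a list. The files hold no read counts, so the depth is unknown, and with 2 libraries of 1 group no test across samples was possible.

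Ubx encodes a homeodomain transcription factor that gives the posterior thorax and the anterior abdomen their identity. Its expression is set by a regulatory region inside its own introns, known genetically as abx/bx, and by another upstream of its promoter, known as bxd/pbx. The noncoding gene lncRNA:bxd is transcribed across part of the upstream region. The on or off state set in the early embryo is later held by the antagonism of the Polycomb group, which represses, and the trithorax group, which keeps genes active. Both act through DNA stretches called response elements, one of which is known from the bxd region. Ash1 belongs to the trithorax group and methylates histone H3 at lysine 36. Coordinates of mapped response elements were not used here, so regions were placed by gene, intron and distance only.

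Both strongest peaks of the window were narrow in the pooled list. Sequences under the first, beside the second and under 3 weaker peaks are shown because they carry the contrasts described further on. All are 201 bases of the minus strand, on which both Ubx and lncRNA:bxd are annotated, read from RefSeq's copy of dm6. Capitals mark GAGAG, the core of GAGA factor sites, GCCAT, the core of sites for the Polycomb recruiter Pho, and the Zeste words, which are TGAG or else CGAG followed directly by TG or else CG, each on either strand. The first has the strongest summit, in intron 1 of lncRNA:bxd, in its middle. The second lies directly upstream of the Ubx transcription start site (TSS), since the summit itself falls in the 5' untranslated part of the gene. This second sequence overlaps only the upstream end of the peak (16734299 to 16734481) and does not include its summit at 16734391. The others have in their middle the summit in intron 3 of Ubx, the one beyond lncRNA:bxd, and the one in intron 1 of lncRNA:bxd that had no match to any of these words.
lncRNA:bxd intron 1, rank 163, chr3R:16764252-16764452: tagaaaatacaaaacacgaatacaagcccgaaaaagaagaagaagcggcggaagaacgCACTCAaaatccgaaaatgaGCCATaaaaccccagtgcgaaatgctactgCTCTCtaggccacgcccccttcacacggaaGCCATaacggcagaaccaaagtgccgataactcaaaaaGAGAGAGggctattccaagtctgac
Ubx upstream, beside rank 326, chr3R:16734427-16734627: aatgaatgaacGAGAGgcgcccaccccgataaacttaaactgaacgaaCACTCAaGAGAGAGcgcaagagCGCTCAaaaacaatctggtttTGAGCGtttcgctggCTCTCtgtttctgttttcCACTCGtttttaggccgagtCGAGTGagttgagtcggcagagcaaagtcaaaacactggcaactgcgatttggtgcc
Ubx intron 3, rank 922, chr3R:16703032-16703232: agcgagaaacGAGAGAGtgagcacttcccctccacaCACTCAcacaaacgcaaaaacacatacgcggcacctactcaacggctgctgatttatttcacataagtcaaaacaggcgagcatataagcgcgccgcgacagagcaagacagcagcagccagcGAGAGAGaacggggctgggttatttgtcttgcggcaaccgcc
Upstream of lncRNA:bxd, rank 1408, chr3R:16782479-16782679: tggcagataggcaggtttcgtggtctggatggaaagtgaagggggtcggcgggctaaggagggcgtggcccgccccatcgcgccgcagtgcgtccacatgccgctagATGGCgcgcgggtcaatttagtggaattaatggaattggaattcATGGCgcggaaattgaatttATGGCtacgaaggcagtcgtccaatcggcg
lncRNA:bxd intron 1, rank 1517, chr3R:16771962-16772162: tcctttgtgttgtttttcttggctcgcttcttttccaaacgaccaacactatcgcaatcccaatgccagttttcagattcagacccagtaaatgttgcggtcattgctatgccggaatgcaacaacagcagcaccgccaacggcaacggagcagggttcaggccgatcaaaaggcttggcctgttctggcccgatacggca

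The Ubx promoter was the only promoter in the window with a peak. The region, 183 bp at 16734299 to 16734481, had its summit 35 bp downstream of the TSS at 16734426, from which all 6 annotated Ubx transcripts start. It ranked 326 in the pooled list, 224 in replicate 2 and 286 in replicate 4. Its own replicate summits, at 16734391 and 16734405, lay 35 and 21 bp from the TSS. Thus both libraries placed a strong region directly at the start of Ubx. The 201 bp centred on the summit held 1 GCCAT and 2 Zeste words and no GAGAG. The 201 bp upstream of the TSS held 4 matches to GAGAG, 5 to the Zeste words and none to GCCAT, and overlapping matches were counted separately. No counts upstream of other start sites are given here, so these upstream counts have no background.

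Inside Ubx, a gene of 77804 bp, 1 further peak was found among 94 candidates, where 5.22% of all pooled candidates were peaks. It lay in intron 3, the 51488 bp intron next to the last exon, at 16702964 to 16703299, with its summit at −31294 bp from the TSS, where negative distances lie inside Ubx. It ranked 922 in the pooled list, and the candidates within 100 bp of its summit ranked 2977 in replicate 2 and 1777 in replicate 4. Replicate 2 had a stronger region, rank 1204, whose summit at 16702944 fell outside that distance. Neither the 12 candidates of intron 1 nor the 21 of intron 2 included a peak, and the other 56 of intron 3 did not either. The strongest of intron 2 ranked 1804, with ranks of 2162 in replicate 2 and 2420 in replicate 4. It lay within asRNA:PS4, a noncoding gene on the opposite strand, 1454 bp from that gene's nearest TSS. At the start sites of asRNA:PS4 the best candidate ranked 3329, with 3824 in replicate 2 and 3504 in replicate 4. The 4 Ubx exons held 4 candidates, of which the one at the start of the gene was a peak.

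Upstream of Ubx, 4 of the 34 candidates within lncRNA:bxd were peaks, where 5.22% of all pooled candidates were. All 4 lay in its introns, as did most of its candidates, since its exons held only 4 of the 34. The strongest peak of the window, 150 bp at 16764321 to 16764470 in intron 1, had its summit 29926 bp upstream of the Ubx TSS and 8837 bp from the nearest start of lncRNA:bxd. It ranked 163 in the pooled list, 283 in replicate 2 and 135 in replicate 4. The replicate summits, at 16764284 and 16764292, were close to each other, and the pooled summit lay beside them at 16764352. Like the Ubx promoter, this region was strong in both libraries. Of the 7 peaks it was the only one with all 3 kinds of word within 100 bp of the summit: 3 matches to GAGAG, 2 to GCCAT and 1 to a Zeste word.

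A pair of peaks 1012 bp apart lay in intron 3 of lncRNA:bxd. The one at 16747823 to 16748158 ranked 1159 in the pooled list, 3562 in replicate 2 and 1350 in replicate 4. Its neighbour, at 16748835 to 16749170, ranked 923 in the pooled list, 695 in replicate 2 and 1571 in replicate 4. The region nearer to Ubx was thus the weaker of the pair in replicate 2 and the stronger in replicate 4. The remaining intronic peak, at 16771894 to 16772229, lay 1127 bp inside the most upstream start of lncRNA:bxd. It ranked 1517 in the pooled list, 7204 in replicate 2 and 811 in replicate 4.

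None of the 3 annotated start sites of lncRNA:bxd had a peak. At the start of transcript RB (16752209), the nearest summit was 63 bp away and ranked 2156, with 4114 in replicate 2 and 2557 in replicate 4. At the start of RC (16746386) the candidate ranked 6011, with no replicate 2 candidate within 100 bp and rank 2606 in replicate 4. At the start shared by RA and RD (16773189), which gives the longest transcripts, it ranked 17526, with rank 20536 in replicate 4. Replicate 2 had no candidate within 100 bp of that summit, and one of rank 10169 at 16772940, 249 bp from the TSS. The 4 strongest regions of lncRNA:bxd lay in its introns and not at its start sites. Each start site had only 1 pooled candidate within 500 bp, and most of the gene's candidates were intronic.

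Beyond lncRNA:bxd, towards abd-A, 1 of 30 candidates was a peak, where 5.22% of all pooled candidates were. This peak stood alone there. It lay between genes, at 16782411 to 16782746, 48153 bp upstream of the Ubx TSS and 918 bp from the start of lncRNA:CR44945. It ranked 1408 in the pooled list, 6967 in replicate 2 and 412 in replicate 4. Promoter candidates of the other genes did not pass: lncRNA:CR44945 ranked 4892, the sugar transporter gene Glut3 5161, and CG31275, which lies inside lncRNA:bxd, 5864. The 7698 bp between Ubx and lncRNA:bxd held 8 candidates and no peak, the strongest at rank 6314. The border of the window fell beside a stronger region: the last candidate inside, at 16797994, ranked 13308, and the first beyond it, at 16798844, ranked 67, with 95 in replicate 2 and 52 in replicate 4. At the other border the first candidate inside ranked 7108 and the last outside 8921, and the nearest peak on that side was 207210 bp away.

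**Figure D1:**
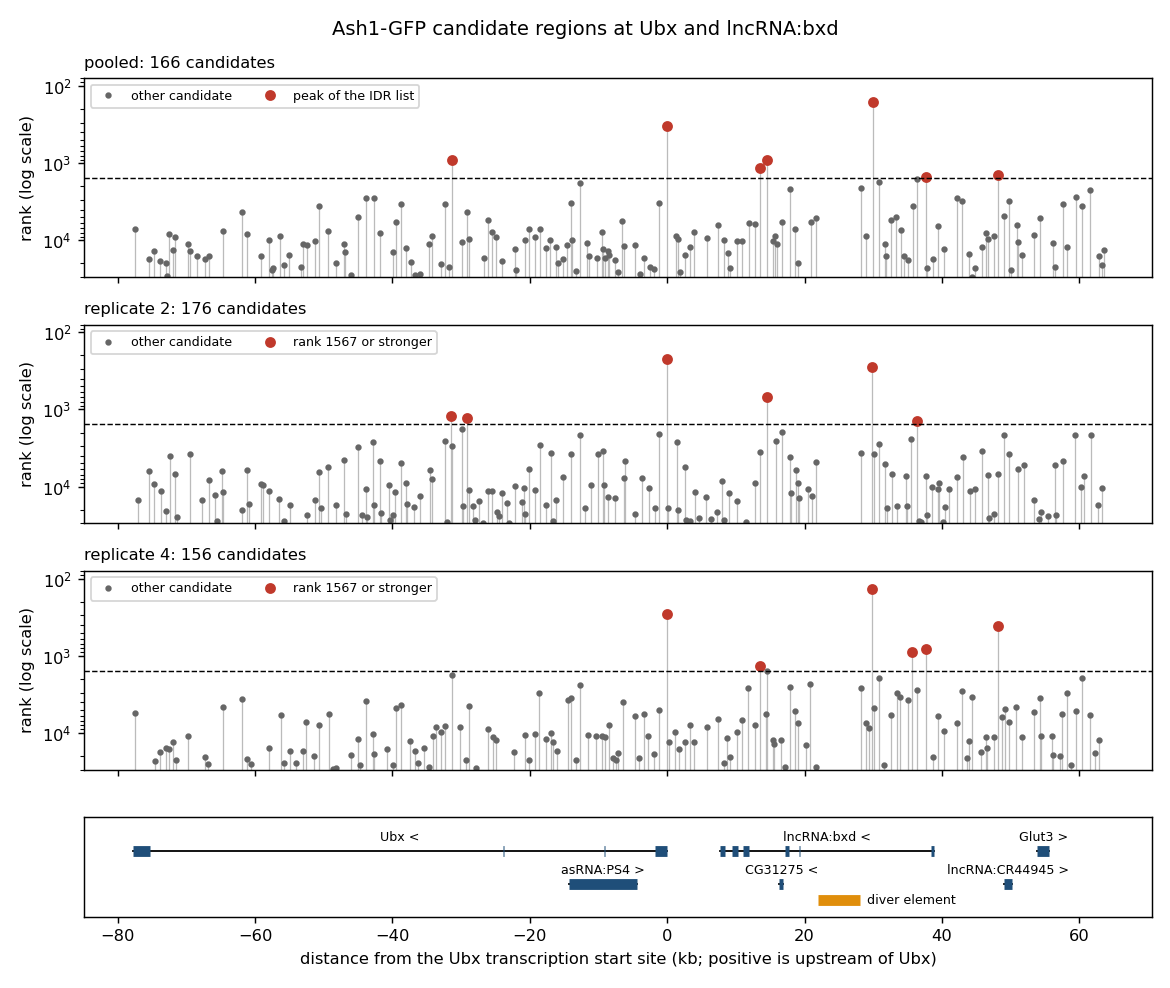
Ranks of candidate regions (log scale, strongest at the top) against distance of the summit from the Ubx TSS in kb, in the pooled list, replicate 2 and replicate 4, with genes below (boxes, exons of Ubx and lncRNA:bxd or whole short genes; arrowheads, strand). The Ubx promoter and the region 29926 bp upstream stand out in all 3 panels, above a dense row of weaker candidates with 1 wide gap at the diver transposable element.

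The share of window candidates that were peaks was close to the share over all candidates. It was 4.22% (7 of 166, exact 95% binomial interval 1.71 to 8.5) in the window and 5.22% over the pooled list. In replicate 2, 6 of 176 window regions were among its 1567 strongest (3.41%, against 5.22% overall), and in replicate 4, 6 of 156 (3.85%, against 5.22%). These intervals and shares treat regions as separate, although neighbours share chromatin and reads. Of candidates away from promoters, 3.87% (6 of 155) were peaks in the window and 3.03% over all arms. A promoter is here a stretch within 500 bp of a TSS, and 6.63% of the window's candidates lay at one, against 28.1% of all candidates. The highest −log10 q-value that the authors' list contains was reached by 24 of 166 window candidates (14.5%), and by 11.8% of all. The interval of the window's share of peaks includes the overall share, and the same holds in each replicate.

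The window was densely filled with candidates. It held 117.4 pooled candidates per 100 kb, against 22.41 per 100 kb over 6 chromosome arms, a ratio of 5.24. The ratio was 5.56 in replicate 2 and 4.92 in replicate 4, so it was present in each library. Peaks stood at 4.95 per 100 kb, against 1.17, a ratio of 4.23. The arm lengths include long stretches without any pooled candidate, for example 2R up to 5655120, which raise these ratios. Candidate regions covered 37.2% of the window and 7.3% of all arms. Neighbouring summits were a median 728 bp apart in the window and 1265.5 bp apart over all arms. Whether the shared control contributed to this density was not tested. Because the pooled list includes background, a candidate is not in itself a bound region. At rank 10537, near the window's median rank of 10469, the −log10 q-value was 1.09, where the highest was 3.85.

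The dense filling extended over both sides of the Ubx promoter. There were 120.8 candidates per 100 kb within Ubx, 103.9 between the genes, 109.4 within lncRNA:bxd and 120.9 beyond it. Peaks were less evenly spread, at 2.57 per 100 kb within Ubx, 12.9 within lncRNA:bxd and 4.03 beyond it, from counts of 2, 4 and 1. The median pooled rank was 12045 within Ubx, 7294.5 within lncRNA:bxd and 9232.5 beyond it.

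The median pooled rank of the window candidates was 10469, where the whole list has 15000.5. Ranks 1568 to 5000 held 25 of the window candidates (15.1%, against 11.4% of all candidates), ranks 5001 to 10000 held 45 (27.1%, against 16.7%) and ranks 10001 to 20000 held 65 (39.2%, against 33.3%). The weakest band, ranks 20001 to 30000, held 24 (14.5%, against 33.3%). The window is 0.106% of the arms' length, and it held 0.447% of all regions ranked 1 to 1567, 0.9% of those ranked 5001 to 10000 and 0.24% of those ranked 20001 to 30000. The weakest peak ranked 1517, and the strongest window candidate below the threshold, at 16770856 in intron 1 of lncRNA:bxd, ranked 1594.

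When all arms were divided into 943 consecutive tiles of the window's length, a tile held a median of 29 candidates, with empty tiles included. A single tile reached the window's 166, with 170, and it overlaps the window, from within intron 3 of Ubx to within abd-A. The next, with 160, runs from within abd-A to within Abd-B, and the highest outside the bithorax complex had 146. By peaks the window was less extreme, since 44 tiles held 7 or more and the highest number was 15. This describes how candidates lie along the genome, and no test was made of it.

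**Figure D2:**
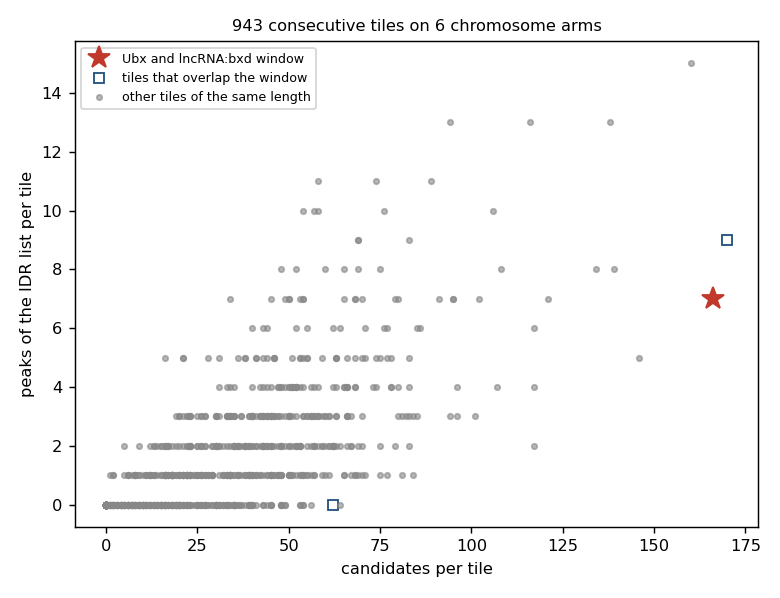
Peaks of the IDR list against candidates for the window (star), the tiles that overlap it (squares) and all other tiles of 141378 bp (dots) on 6 arms. The window, with 166 candidates and 7 peaks, lies at the far right but not at the top.

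The replicates shared the strongest regions of the locus and ranked many others differently. Of the 166 candidates, 68 (41.0%) had a candidate within 100 bp in both replicates, against 31.0% of all pooled candidates. Replicate 2 matched 101 (60.8%, against 51.5% overall) and replicate 4 matched 109 (65.7%, against 62.2%). The exact 95% interval of the replicate 4 share, 57.9 to 72.8, includes the overall share. In neither replicate were 24 matched (14.5%, against 17.2% overall). Replicate candidates were also denser in the window, at 124.5 (replicate 2) and 110.3 (replicate 4) per 100 kb, against 22.41 over all arms. A match by position alone is therefore likelier in the window, and its part in these shares was not tested. All 7 peaks were matched in both replicates, as were 1436 of the 1567 peaks of the whole list. Only the Ubx promoter and the strongest region of lncRNA:bxd, 2 of 7 peaks (28.6%, exact 95% interval 3.67 to 71.0), were among the 1567 strongest of both replicates, against 46.3% of all peaks. The interval at the locus includes the value over all peaks, so at 7 peaks a difference was not detectable.

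The other 5 peaks ranked beyond 1567 in at least 1 library. Replicate 4 gave the stronger rank for 5 of 7 window peaks (71.4%) and for 55.7% of all matched peaks. The widest gaps were at the region beyond lncRNA:bxd (6967 in replicate 2, 412 in replicate 4) and at the one near the upstream start of lncRNA:bxd (7204 and 811). The peak at 16748835 to 16749170 was stronger in replicate 2 and ranked 1571 in replicate 4, just beyond its 1567 strongest. Over the 68 matched candidates the ranks of the replicates had a Spearman rho of 0.463, against 0.53 over 9294 matched candidates of the whole list. These coefficients are across regions, which share libraries and a control, and carry no test.

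**Figure D3:**
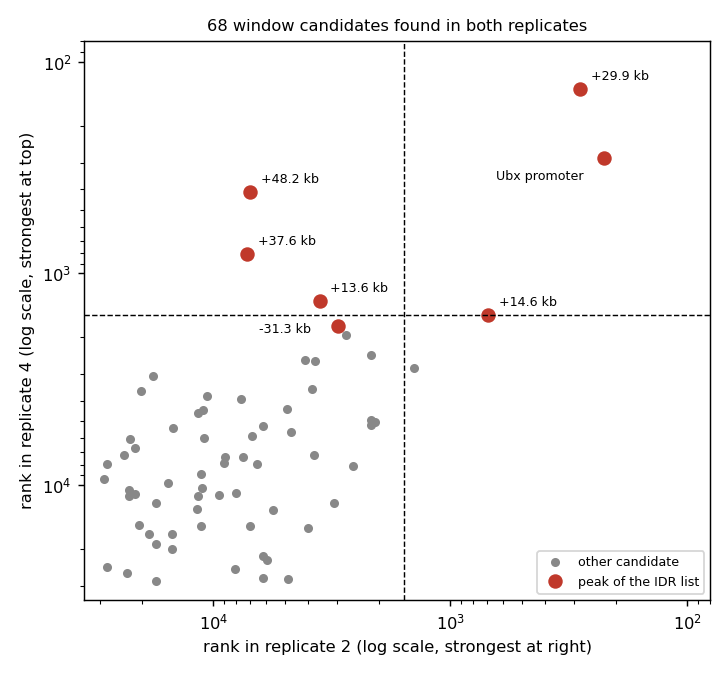
Rank in replicate 2 against rank in replicate 4 (log scales) for the 68 window candidates matched within 100 bp in both; dashed lines mark rank 1567 and labels give the distance of each peak from the Ubx TSS. Only the Ubx promoter and the region at +29.9 kb lie beyond both lines.

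Each replicate also had regions among its 1567 strongest that were below the threshold in the pooled list. In replicate 2 these were a region in intron 3 of Ubx, with its summit at 16705299 (rank 1286), and one in intron 1 of lncRNA:bxd, at 16770848 (rank 1421). In replicate 4 it was a region in intron 1 of lncRNA:bxd, at 16770125 (rank 882), for which replicate 2 had none within 100 bp of the pooled summit and one of rank 2428 within 250 bp. In the pooled list their ranks were 4268, 1594 and 3600.

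In the pooled list, region width separated the 2 strongest regions from the rest. The most frequent region width was 336 bp, and the Ubx promoter (183 bp) and the strongest region of lncRNA:bxd (150 bp) were narrower. All of the 159 window candidates below the threshold and the other 5 peaks had the full width. Over the whole list, 19.9% of peaks and 0.0387% of other candidates were narrower than 336 bp, so width was not independent of rank. In replicate 2 the Ubx promoter region was 138 bp wide. The strongest region of lncRNA:bxd was there 400 bp wide, like most window regions of that list.

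Sequence near the summits was compared for 6 motifs, namely words of factors known at response elements and the homeodomain core TAATTA. The Pho core GCCAT lay within 100 bp of the summit in 97 of 166 window candidates (58.4%, exact 95% interval 50.5 to 66.0) and in 38.1% of all candidates. Consecutive 201 bp tiles held it in 44.8% of cases in the window and 35.4% over all arms, with a GC content of 42.1% and 42.2%. The share was 53.2% within Ubx, 58.8% within lncRNA:bxd and 73.3% beyond it, and was between 51.1% and 62.5% in every band of rank. It was also above that of all candidates elsewhere in the Hox complexes, at 54.3% of 197 candidates in the rest of the bithorax complex and 47.6% of 233 in the Antennapedia complex. Median GC content near summits was 47.3% in the window and 46.3% over all candidates. A match is a short word, not a binding site, and no test was made.

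The other motifs were closer to the background. GAGAG lay near 25.9% of window summits and 28.3% of all, the Zeste words near 29.5% and 33.3%, and GTGTGT, a Combgap word, near 19.3% and 19.1%. GAAAA, a Dsp1 word, lay near 61.4% and 59.1%, and the homeodomain core TAATTA near 12.0% and 8.55%. Of the 7 peaks, 4 had GCCAT, against 33.6% of all peaks, and 4 a Zeste word, against 38.1%. GAAAA was found at 3 (65.7% of all peaks), GAGAG at 2 (37.5%), GTGTGT at 1 (24.4%) and TAATTA at none (8.81%). With 7 peaks these shares have wide intervals, for GCCAT 18.4% to 90.1%. The region beyond lncRNA:bxd had 3 matches to GCCAT and none to GAGAG or Zeste words, whereas the Ubx intron 3 region had 4 to GAGAG, 1 to a Zeste word and none to GCCAT. Within 100 bp of the summit, no word was found at all 7 peaks.

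**Figure D4:**
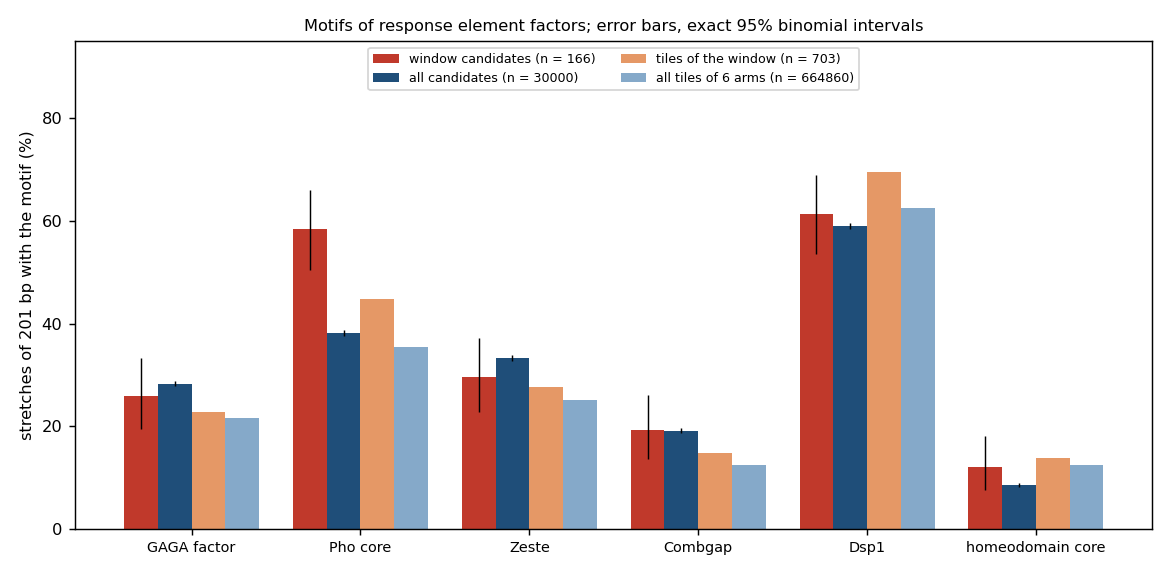
Percentage of 201 bp stretches with each factor's word: window candidates, all candidates (both with exact 95% binomial intervals, counting error only), and consecutive tiles of the window and of 6 arms. For the Pho core the window candidates stand at 58.4%, above the 38.1% of all candidates, while the intervals of the window candidates include the value of all candidates for the GAGA factor, Zeste, Combgap, Dsp1 and homeodomain words.

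Among the 8 Hox genes Ubx had the strongest promoter region. Its rank of 326 was followed by 816 at abd-A (816 in replicate 2, 694 in replicate 4) and 964 at Antp (2645 and 1563), all peaks. The promoters of lab, Abd-B, Scr, Dfd and pb, at ranks 1879 to 10482, did not pass. Of these 8, Ubx and abd-A were the only ones within the 1567 strongest of both replicates. The window had 117.4 candidates and 4.95 peaks per 100 kb, against 113.1 candidates and 9.76 peaks in the rest of the bithorax complex (16798001 to 16972236), where 17 of 197 candidates (8.63%) were peaks. The Antennapedia complex had 68.98 candidates and 2.66 peaks per 100 kb.

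By the 3 ranks of their strongest promoter candidate, the 3 protein-coding genes most like Ubx were RpL8, CG11857 and exex, of 3149 genes compared. Likeness was the Euclidean distance of log10 ranks in the pooled list and both replicates, and it was 0.131 for RpL8, 0.157 for CG11857 and 0.159 for exex. RpL8, a ribosomal protein gene, ranked 267 in the pooled list, 281 in replicate 2 and 284 in replicate 4. The homeobox gene exex ranked 279, with 298 and 339.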

How the data were processed

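Ash1-GFP ChIP-seq of 2 biological replicates of whole embryos was analysed from 4 deposited narrowPeak lists in dm6, per the file headers and text deposited with them. The authors made 30000 candidate regions from each replicate and from both pooled, each against 1 shared control, and 1567 pooled regions passed their IDR threshold. The deposited signal value is the authors' enrichment measure, of unstated scale, and the deposited −log10 q-value is theirs too. Not given in the sources used here: aligner, peak caller, versions and IDR threshold. The 1567 peaks are exactly the pooled regions ranked 1 to 1567 by signal, so rank and passing are the same information.

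Summits were start plus offset, printed 1-based. Replicate regions were matched within 100 bp. Genes and TSSs came from Ensembl release 115 without transposable elements, and sequence from RefSeq's copy of the same assembly. Introns were numbered from the 5' end between merged exons. Named are all genes overlapping the window, the 8 Hox genes and, by a rule of the 5 genes most like Ubx, the first 3, since the rest of that result is not reported here. The members, lists and motifs were chosen with earlier results of these data known. Matching, motif search and distances were tested on simulated data. Python 3.11.15, pandas 2.3.3, NumPy 2.4.6 and SciPy 1.17.1 were used. No depth was available, and intervals cover counting error only.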

Additional observations from a re-analysis of the deposited data

How the results depend on the processing

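The number of peaks in the window, 7, was 6 when each replicate was left out in turn (6 to 6, from the 1567 strongest regions of the remaining replicate), 6 with regions under 1000 bp apart merged, and 7 with the window applied to whole regions. The 6 regions differed between the replicates. Only the peaks ranked 163 and 326 were among the 1567 strongest of both. With the 783 strongest peaks only, 2 remained, the regions ranked 163 and 326. One promoter peak was found with a limit of 250 bp or 500 bp and 2 with 1000 bp, which adds the region 918 bp from lncRNA:CR44945. The percentage of peaks strong in both replicates was 28.6 within 100 bp or 250 bp, 14.3 within 50 bp, because the strongest region of lncRNA:bxd was then unmatched, and 57.1 with ranks up to 3134. With 7 peaks each step is a single region. With 50 bp or 150 bp either side of the summit, GCCAT was found at 42.9% or 85.7% of the peaks, GAGAG at 14.3% or 42.9%, GAAAA at 3 or all 7 of the 7 peaks (3 at 100 bp) and GTGTGT at 0.0% or 14.3% (14.3% at 100 bp). No paired analysis was possible because there is 1 group. The unknown depth leaves read sampling error out of every rank.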

Other observations

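The row of candidates at the locus had a single wide gap. Between the summits at 16756110 and 16762664, 6554 bp apart in intron 1 of lncRNA:bxd, no list had a summit within the annotated diver transposable element (16756375 to 16762507, 6133 bp). Of 695 annotated transposable elements of at least 5000 bp on the same arms, 691 had no pooled summit. How reads from repeated sequence were mapped is not given in the sources used here, and its part in the gap was not tested.

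Outside the bithorax complex, the tiles with the most candidates, named after their values were seen, lay on 3L (11310241 to 11451618, 146 candidates and 5 peaks), on 3R at Antp (139 and 8) and on 3R at corto (138 and 13). The longest genes of the first of these are CG6163, CG6168, CG7573 and CG7557. Next came a 3L tile with hng3, Sf3b3, Cep290 and emc (134 and 8) and a 2L tile with CG31612 and tsh (121 and 7). Tiles with 117 candidates lay at noc on 2L (6 peaks), at mirr, ara and caup, the Iroquois complex (4), and at hth, the gene of a Hox cofactor (2).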
